A study of Homo sapiens with 6 samples.

Results

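The genes described here are 39 DNA replication genes of H441 cells, named in a list of factors that license origins, unwind and copy DNA, supply nucleotides and reassemble chromatin. Each was read by the brightest probe carrying exactly 1 gene symbol in the platform annotation, and all 39 were found among the 18417 genes measured. H441 is an established human lung adenocarcinoma line. Its cells were transfected by lipid reagent with a pool of siRNA against ETS2 or with scrambled control siRNA, and total RNA was taken 48 h later. Both groups therefore carry transfected siRNA, and each holds 3 arrays from separate transfections. The study compares 1 siRNA pool with 1 control in 1 cell line.

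Before S phase, the origin recognition complex (ORC) marks origins, and CDC6 and CDT1 help it load the MCM2 to MCM7 ring, a step called licensing. CDC45 and the GINS complex then join MCM to form the active CMG helicase, and polymerases held on DNA by the PCNA clamp copy both strands. Many of these genes are transcribed under E2F factors as cells pass from G1 into S phase, so their RNA levels follow the proliferation of a culture. In RNA from whole cultures, a larger share of cells in S phase and more RNA per cell cannot be told apart.

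Values are RMA expression levels on the log2 scale, and every difference is ETS2 siRNA minus control siRNA on that scale. Differences were tested with limma, a linear model fitted across all 18417 genes, and a gene was called when its Benjamini-Hochberg adjusted p was under 0.05. A background floor of 6.67 was taken as the 95th percentile of the mean levels of 341 olfactory receptor genes, which serve smell in nasal neurons. All 39 replication genes lay above it. The targeted gene checked the labels. ETS2 stood at 8.87, 8.70 and 8.78 after ETS2 siRNA, against 9.79, 9.91 and 9.79 with control siRNA, a fall of 1.05 (adjusted p = 0.000254 by limma). NKX2-1, the lung lineage factor, averaged 10.93 after ETS2 siRNA and 11.03 with control siRNA, whereas the alveolar type II gene SFTPC lay below the floor in both groups. Of 9 measured lung epithelial markers, SFTPB, a surfactant protein gene, fell by 0.36 (adjusted p = 0.00770) and the other 8 were not called. Of the markers of other cell types, 3 of 6 leukocyte genes and 5 of 9 fibroblast or endothelial genes exceeded the floor in 1 group or both, CD68 and COL1A1 among them, and PTPRC and CDH5 lay below it. By limma 0 of 6 leukocyte and 0 of 9 fibroblast or endothelial markers were called (2 and 0 at an unadjusted p under 0.05). Control replicate 2 stood somewhat apart: its gene-wise differences from the other two control arrays had SDs of 0.134 and 0.126, against 0.0994 between those arrays and 0.0928 to 0.106 among the ETS2 siRNA arrays.

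After ETS2 siRNA, 3 of the 39 replication genes rose and 1 fell. The licensing factor CDC6, the checkpoint mediator CLSPN and the methylation maintenance factor UHRF1 were higher, and RRM1, the large subunit of ribonucleotide reductase, was lower. Over all genes 4.91% were called, 2.28% higher and 2.63% lower, against 10.3% of the 39. All 39 lay above the floor, against 13043 of the 18417 genes, so shares over all genes here and below include genes near background. With only those 13043 genes tested, limma called 1397 of them and 10 of the 39. The differences were small: the highest was a 1.24-fold change for CDC6, and 0 of the 39 reached 1.5-fold. The 4 calls rest on all 6 arrays together, since 0 of the 39 were called by limma when any 1 array was left out. Between 10 and 21 were then higher and 1 lower at an unadjusted p under 0.05. The share over all genes in those fits was not computed. With all 6 arrays, 17 of the 39 were higher and 1 lower at that threshold, against 9.28% and 9.23% of all genes. The members were chosen with earlier results of these arrays known, so the counts are descriptions.

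The promoters of the 4 called genes are shown. Each window runs from 250 bases before to 50 after the transcription start in RefSeq on GRCh38.p14, and capitals mark matches to the E2F motif searched. That motif was TTTCCCGC, TTTCGCGC, TTTGCCGC or TTTGGCGC on either strand, with overlapping matches counted once. The CDC6 window is chr17:40287629-40287928 on the plus strand, CLSPN is chr1:35769929-35770228 on the minus strand, UHRF1 is chr19:4909251-4909550 on the plus strand and RRM1 is chr11:4094435-4094734 on the plus strand. UHRF1 has 3 windows in the table, and the one with the most E2F matches, then the lowest start, is printed.
CDC6: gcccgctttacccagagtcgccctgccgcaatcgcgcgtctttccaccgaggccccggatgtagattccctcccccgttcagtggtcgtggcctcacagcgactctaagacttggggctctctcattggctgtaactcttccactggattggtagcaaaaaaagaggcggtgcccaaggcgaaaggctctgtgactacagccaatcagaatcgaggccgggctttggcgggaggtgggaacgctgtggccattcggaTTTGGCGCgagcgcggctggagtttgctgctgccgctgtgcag
CLSPN: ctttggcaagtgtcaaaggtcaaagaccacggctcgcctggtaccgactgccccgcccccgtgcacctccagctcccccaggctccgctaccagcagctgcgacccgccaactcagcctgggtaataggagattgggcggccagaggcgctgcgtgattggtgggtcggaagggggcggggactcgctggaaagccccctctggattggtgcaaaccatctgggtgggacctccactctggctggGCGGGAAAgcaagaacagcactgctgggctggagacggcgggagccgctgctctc
UHRF1: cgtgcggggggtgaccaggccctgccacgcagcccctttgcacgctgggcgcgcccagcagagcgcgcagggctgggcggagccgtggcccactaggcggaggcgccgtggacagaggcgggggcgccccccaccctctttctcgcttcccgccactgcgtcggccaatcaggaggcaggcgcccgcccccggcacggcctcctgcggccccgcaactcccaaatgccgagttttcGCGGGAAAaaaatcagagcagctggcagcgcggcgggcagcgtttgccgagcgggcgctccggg
RRM1: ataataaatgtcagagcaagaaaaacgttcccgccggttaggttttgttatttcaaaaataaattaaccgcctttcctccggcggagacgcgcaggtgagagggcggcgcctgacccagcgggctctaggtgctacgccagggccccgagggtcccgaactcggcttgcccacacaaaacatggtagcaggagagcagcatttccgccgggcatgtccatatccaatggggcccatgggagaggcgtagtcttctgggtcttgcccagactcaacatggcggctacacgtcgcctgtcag
In CDC6 the match is TTTGGCGC at bases 258 to 265 of the window, just after the start. CLSPN carries GCGGGAAA at bases 246 to 253, across its start, and UHRF1 carries the same letters at bases 237 to 244, just before it. The RRM1 window holds none of the E2F letters searched. A CCAAT box, an element common in cell-cycle promoters, lies in all 4 windows. CDC6 and CLSPN hold 3 each, and UHRF1 and RRM1 hold 1 each. The search took exact letters only and passed over near matches. The RRM1 window holds gttcccgc, which differs from TTTCCCGC in its first letter. The CDC6 window holds an unmarked tttggcgg, which differs from TTTGGCGC in its last letter.

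Of the 39 genes, 36 had promoter windows in the RefSeq table, 47 windows in all, and MCM4, MCM5 and GINS4 had none. An E2F match lay in 21 of the 47 windows (44.7%), against 3.31% of all 35116 windows of the same length and 4.15% of the windows of measured genes. In other replication genes, described below, 18 of 80 windows (22.5%) held one, so the share of 44.7% belongs to this list. By gene, 20 of the 36 had a match in at least 1 window. MCM3, MCM6, MCM7 and E2F1 each had a window with 2 separate matches. A CCAAT box, the letters CCAAT on either strand, lay in 61.7% of the windows of these genes, against 34.6% of all windows. The ETS motif, searched as CCGGAAGT or CCGGAAGC on either strand, lay in 3 of the 47 windows (6.38%), against 7.36% of all windows. Those 3 windows belong to GINS3, POLA1 and RFC4. The median GC content was 65.7% over the windows of the replication genes and 58.7% over all windows, and the E2F and ETS letters are themselves GC-rich.

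**Figure D1:**
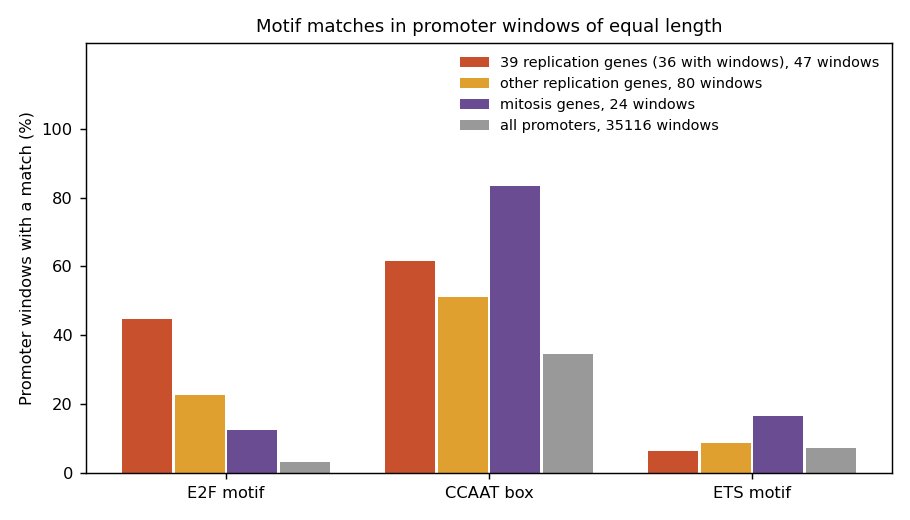
Share of promoter windows, in percent, that hold at least 1 match to the E2F motif, the CCAAT box and the ETS motif, for the replication genes, other replication genes, mitosis genes and all promoters. The E2F bar is 44.7% for the replication genes and 3.31% for all promoters, while the ETS bars are 6.38% and 7.36%.

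Within the list, genes with and without an E2F match overlapped in their differences. Differences of the 20 genes with a match had a median of 0.07 and ran from -0.04 to 0.31. The 16 genes without a match had a median of 0.11 and ran from -0.21 to 0.17. These are descriptions of this list, with no test.

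Among the licensing genes the call was that of CDC6, the loader that joins ORC at origins. CDC6 stood at 11.54, 11.65 and 11.73 after ETS2 siRNA, against 11.22, 11.34 and 11.43 with control siRNA. Every ETS2 siRNA array was above every control array, and the means were 11.64 ± 0.10 after ETS2 siRNA and 11.33 ± 0.11 with control siRNA (SD, n = 3 each). The difference was 0.31 (SE 0.0673, 95% interval 0.16 to 0.46, adjusted p = 0.0400 by limma). It lay between 0.26 and 0.36 with each array left out in turn, with adjusted p between 0.0517 and 0.152.

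Of the 10 licensing genes, 9 had positive differences, with a median of 0.09, against a median of 0.00333 over all genes. ORC6, a small subunit of the origin recognition complex, came next at 0.17 (adjusted p = 0.0779), with 9.19, 9.16 and 9.25 after ETS2 siRNA above 8.98, 9.07 and 9.05 with control siRNA. ORC1, the subunit that with CDC6 completes the loading machine, differed by 0.08 and its groups overlapped. CDT1, which brings the MCM ring to ORC and CDC6, differed by 0.10, also with overlap.

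The MCM2 to MCM7 subunits form a single ring, and their differences were small, from -0.03 to 0.11 with a median of 0.05. MCM4 and MCM5 had the highest, 0.11 each, with groups apart and adjusted p of 0.218 and 0.196. MCM7 was apart too, at 12.36, 12.36 and 12.35 after ETS2 siRNA against 12.29, 12.32 and 12.31 with control siRNA, a difference of 0.05 (adjusted p = 0.539). MCM3 differed by 0.04 and MCM2 by -0.03, with overlap. MCM6 had the smallest difference of the licensing genes. It stood at 10.48, 10.64 and 10.56 after ETS2 siRNA and at 10.56, 10.54 and 10.55 with control siRNA, with the control arrays inside the range of the ETS2 siRNA arrays. Its difference was 0.01, with a 95% interval from -0.10 to 0.12. None of the MCM ring genes was called by limma, and MCM4 and MCM5 had an unadjusted p under 0.05. The upper 95% bound was 0.21 or less for each of them, below the CDC6 estimate of 0.31. The CDC6 interval itself begins at 0.16 and overlaps those of MCM4 and MCM5. Differences between genes were not tested.

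**Figure D2:**
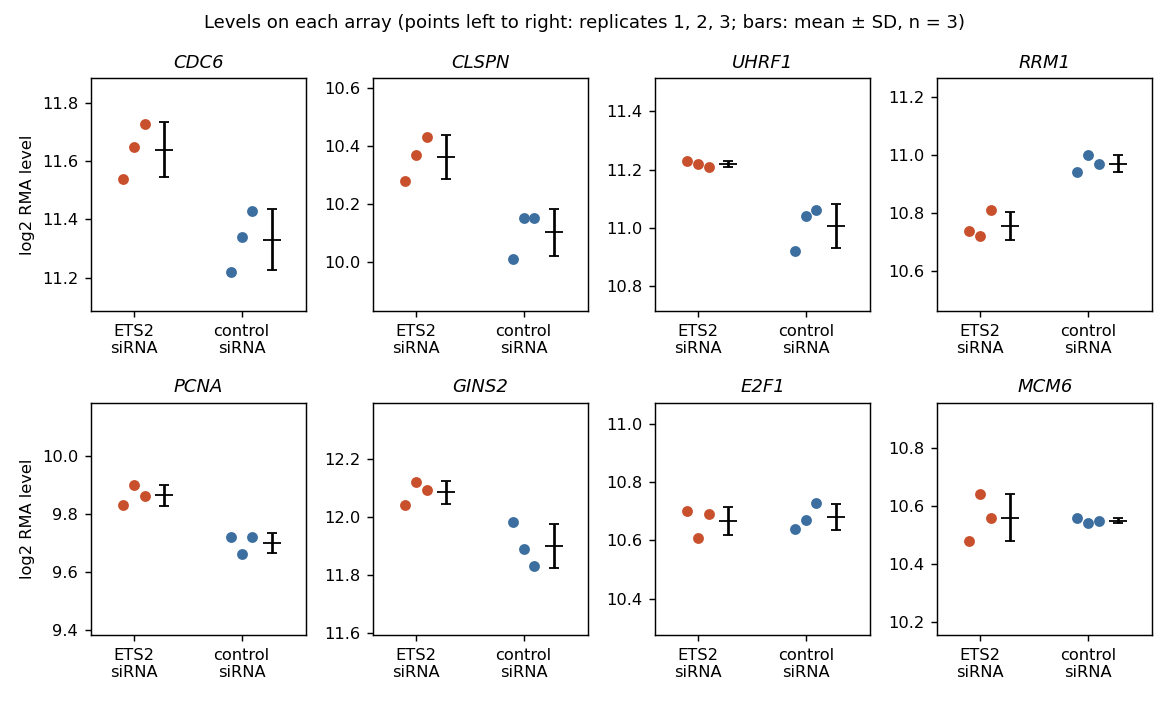
Log2 RMA levels on each array for 8 replication genes, with ETS2 siRNA arrays left of control siRNA arrays and the mean ± SD beside the points (n = 3). CDC6, CLSPN and UHRF1 lie higher and RRM1 lower on all ETS2 siRNA arrays, while the groups of E2F1 and MCM6 overlap; each panel spans 0.8 on the log2 scale.

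The helicase and firing genes showed 6 positive differences of 6, with 0 called by limma and 3 at an unadjusted p under 0.05, all higher. GINS2, a subunit of the GINS complex that bridges CDC45 and MCM, differed most. It stood at 12.04, 12.12 and 12.09 after ETS2 siRNA, against 11.98, 11.89 and 11.83 with control siRNA, a difference of 0.18 (SE 0.0492, adjusted p = 0.0820). Its arrays did not overlap. MCM10, which helps the helicase start unwinding, differed by 0.14 (adjusted p = 0.186), at 10.43, 10.44 and 10.40 after ETS2 siRNA against 10.20, 10.38 and 10.27 with control siRNA. The subunits of GINS were not alike in size: GINS3 differed by 0.10 with groups apart, GINS4 by 0.04 with overlap and GINS1 by 0.02 with overlap. GINS1 stood at 10.78, 10.77 and 10.75 after ETS2 siRNA and at 10.76, 10.79 and 10.70 with control siRNA, with a 95% interval from -0.08 to 0.11. CDC45, the helicase cofactor that travels with the fork, differed by 0.07 with groups apart (adjusted p = 0.431).

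All 12 polymerase, clamp and ligation genes had positive differences, from 0.03 to 0.16 with a median of 0.10. By limma 0 of them were called, and 6 had an unadjusted p under 0.05, all higher. PCNA, the sliding clamp, had the highest. It stood at 9.83, 9.90 and 9.86 after ETS2 siRNA, against 9.72, 9.66 and 9.72 with control siRNA. The groups did not overlap, and the difference was 0.16 (SE 0.0402, 95% interval 0.07 to 0.26, adjusted p = 0.0621).

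The RFC subunits load that clamp. RFC4 differed by 0.16 (adjusted p = 0.0819), with 12.25, 12.18 and 12.22 after ETS2 siRNA above 12.01, 12.07 and 12.10 with control siRNA. RFC2 differed by 0.10 with groups apart, and RFC3 and RFC5 by 0.06 each with overlap. Among the polymerases, POLD1, the catalytic subunit of polymerase delta, differed by 0.15 (adjusted p = 0.0633), at 9.62, 9.62 and 9.65 after ETS2 siRNA against 9.49, 9.44 and 9.50 with control siRNA. POLE, the catalytic subunit of polymerase epsilon, differed by 0.05, and its accessory subunit POLE2 by 0.03, both with overlap. POLE2 stood at 10.09, 10.20 and 10.17 after ETS2 siRNA and at 10.15, 10.14 and 10.08 with control siRNA, with a 95% interval from -0.07 to 0.13. PRIM1, the primase that lays the RNA primer, differed by 0.12 and FEN1, which trims primer flaps, by 0.13, both with groups apart. POLA1, the polymerase that extends the primer, differed by 0.10 and LIG1, which seals the fragments, by 0.08, both with overlap.

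Of the 4 nucleotide supply genes, 2 had positive and 2 negative differences, and the one called was RRM1, which fell. Ribonucleotide reductase turns ribonucleotides into deoxyribonucleotides and needs both a large subunit, RRM1, and a small one, RRM2. RRM1 stood at 10.74, 10.72 and 10.81 after ETS2 siRNA, against 10.94, 11.00 and 10.97 with control siRNA. Every ETS2 siRNA array lay below every control array, and RRM1 fell by 0.21 (SE 0.0416, 95% interval -0.31 to -0.12, adjusted p = 0.0275 by limma). With each array left out in turn the difference lay between -0.24 and -0.20, with adjusted p between 0.0604 and 0.118.

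The small subunit was not called. RRM2 stood at 11.30, 11.39 and 11.39 after ETS2 siRNA, against 11.22, 11.23 and 11.17 with control siRNA, a difference of 0.15 (SE 0.0428, 95% interval 0.05 to 0.25, adjusted p = 0.0909). Its groups did not overlap, and the intervals of RRM1 and RRM2 lie on opposite sides of 0. The difference between the subunits was not tested. TK1, which salvages thymidine, differed by 0.11 with groups apart (adjusted p = 0.148). TYMS, which makes thymidylate from deoxyuridylate, had the smallest difference of the group, -0.04. It stood at 11.28, 11.30 and 11.26 after ETS2 siRNA and at 11.32, 11.31 and 11.32 with control siRNA, so the arrays were apart by a narrow margin (adjusted p = 0.675).

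In chromatin assembly the change was that of UHRF1, which binds newly copied DNA and recruits the maintenance methyltransferase. It stood at 11.23, 11.22 and 11.21 after ETS2 siRNA, against 10.92, 11.04 and 11.06 with control siRNA. The ETS2 siRNA arrays lay close together and above all control arrays. The means were 11.22 ± 0.01 after ETS2 siRNA and 11.01 ± 0.08 with control siRNA (SD, n = 3 each), a difference of 0.21 (SE 0.0467, 95% interval 0.11 to 0.32, adjusted p = 0.0412). With each array left out in turn it lay between 0.17 and 0.24, with adjusted p between 0.0578 and 0.135. A second, dimmer UHRF1 probe read 7.23, 7.10 and 7.09 after ETS2 siRNA against 6.94, 6.88 and 7.03 with control siRNA, a difference of 0.19 (adjusted p = 0.218 by limma over all 33297 probes). In that fit over all probes the brighter UHRF1 probe had an adjusted p of 0.111 by limma. CHAF1A and CHAF1B, subunits of the histone chaperone CAF-1, differed by 0.07 and 0.05. CHAF1B stood at 10.42, 10.40 and 10.43 after ETS2 siRNA and at 10.36, 10.41 and 10.34 with control siRNA, and both genes had overlapping groups.

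CLSPN encodes claspin, which passes the signal of a stalled fork to the checkpoint kinase CHEK1. CLSPN stood at 10.28, 10.37 and 10.43 after ETS2 siRNA, against 10.01, 10.15 and 10.15 with control siRNA. All ETS2 siRNA arrays were higher, with means of 10.36 ± 0.08 after ETS2 siRNA and 10.10 ± 0.08 with control siRNA (SD, n = 3 each). The difference was 0.26 (SE 0.0568, 95% interval 0.13 to 0.39, adjusted p = 0.0431). Its range with each array left out in turn was 0.21 to 0.30, with adjusted p between 0.0581 and 0.161. The second CLSPN probe read 9.68, 9.79 and 9.85 after ETS2 siRNA against 9.54, 9.55 and 9.52 with control siRNA, a difference of 0.24 (adjusted p = 0.102 by limma over all probes). In that fit over all probes the brighter CLSPN probe had an adjusted p of 0.119 by limma. Both probes thus separated the groups in the same direction.

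Neither E2F factor of the list was called. E2F1, an activator of S phase genes, stood at 10.70, 10.61 and 10.69 after ETS2 siRNA and at 10.64, 10.67 and 10.73 with control siRNA. The groups overlapped, and the difference was -0.01 with a 95% interval from -0.12 to 0.09. E2F2, a related activator, differed by 0.09 with overlap, at 7.65, 7.69 and 7.53 after ETS2 siRNA and 7.52, 7.67 and 7.42 with control siRNA. BRCA1, which protects and repairs forks, differed by 0.02 with a 95% interval from -0.10 to 0.13.

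**Figure D3:**
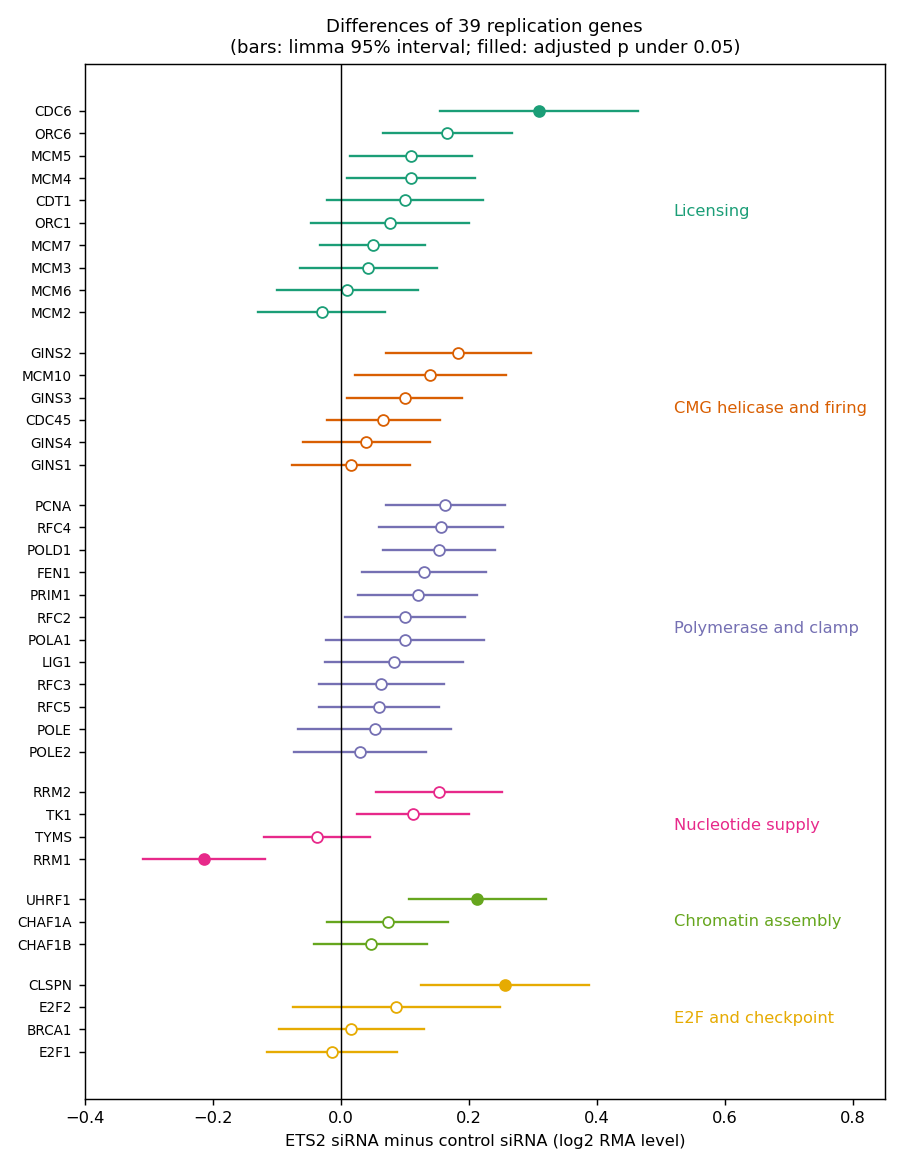
Differences, ETS2 siRNA minus control siRNA in log2 RMA level, of the 39 replication genes by function, with limma 95% intervals. Filled points are the 4 called genes, CDC6, UHRF1, CLSPN and RRM1; 35 of the 39 points lie right of 0 and 4 left of it.

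Across the 39 genes, 35 differences were positive and 4 negative, RRM1, TYMS, MCM2 and E2F1, while 50.8% of all genes were positive. The median difference of the list was 0.09, and the SDs of single genes within groups ran from 0.00577 to 0.13. An unadjusted p under 0.05 was reached by 17 genes on the higher side and by RRM1 on the lower side, against 9.28% of all genes higher and 9.23% lower. The groups did not overlap for 19 genes on the higher side and for RRM1 and TYMS on the lower side, against 11.6% and 11.5% of all genes (23.1% in either direction). Beyond the called genes, the adjusted p lay between 0.05 and 0.1 for PCNA, POLD1, ORC6, RFC4, GINS2 and RRM2, all with positive differences. The direction counts held under each rescaling of the arrays tried, with 35 positive under median-centring, repeated quantile normalisation and centring on ribosomal protein genes.

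**Figure D4:**
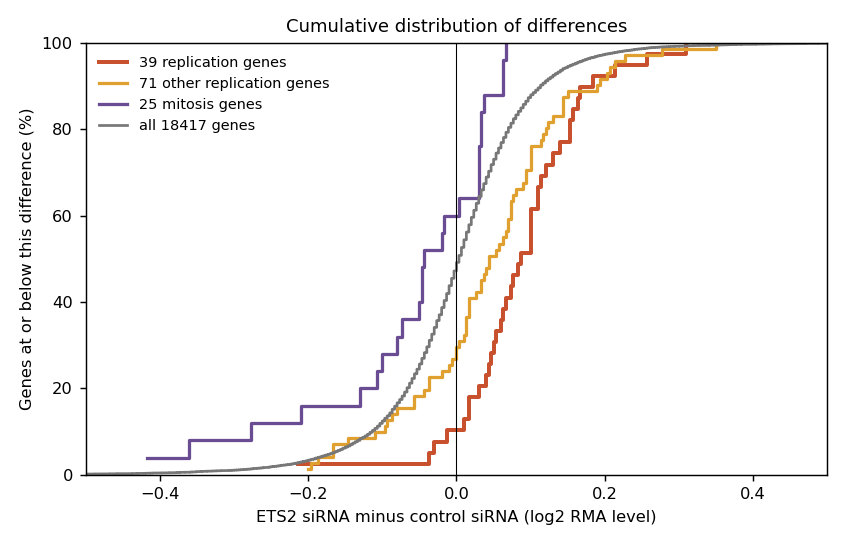
Cumulative percent of genes against the difference, ETS2 siRNA minus control siRNA in log2 RMA level, for the 39 replication genes, 71 other replication genes, 25 mitosis genes and all 18417 genes, drawn from -0.5 to 0.5. The medians are 0.09, 0.04, -0.04 and 0.00333 in that order.

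The shift was not equal on the arrays. Relative to each gene's mean over control arrays, the median deviation of the 39 genes was 0.06, 0.10 and 0.07 on ETS2 siRNA replicates 1, 2 and 3, against -0.02, 0.03 and -0.00333 on control replicates 1, 2 and 3. By this median of the 39 genes control replicate 2 lay nearest to the ETS2 siRNA arrays, with 32 of the 39 above their control mean. Over all genes it was the control array farthest from them. Its gene-wise differences from ETS2 siRNA replicates 1, 2 and 3 had SDs of 0.159, 0.144 and 0.15, against 0.132 to 0.139 for the other control arrays. Without control replicate 2 the median difference of the 39 genes was 0.11, and without control replicate 1, the lowest array, it was 0.075. For the licensing, helicase, polymerase and chromatin assembly genes, every ETS2 siRNA array had a higher group median than every control array. For nucleotide supply and for the E2F and checkpoint genes the arrays overlapped.

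**Figure D5:**
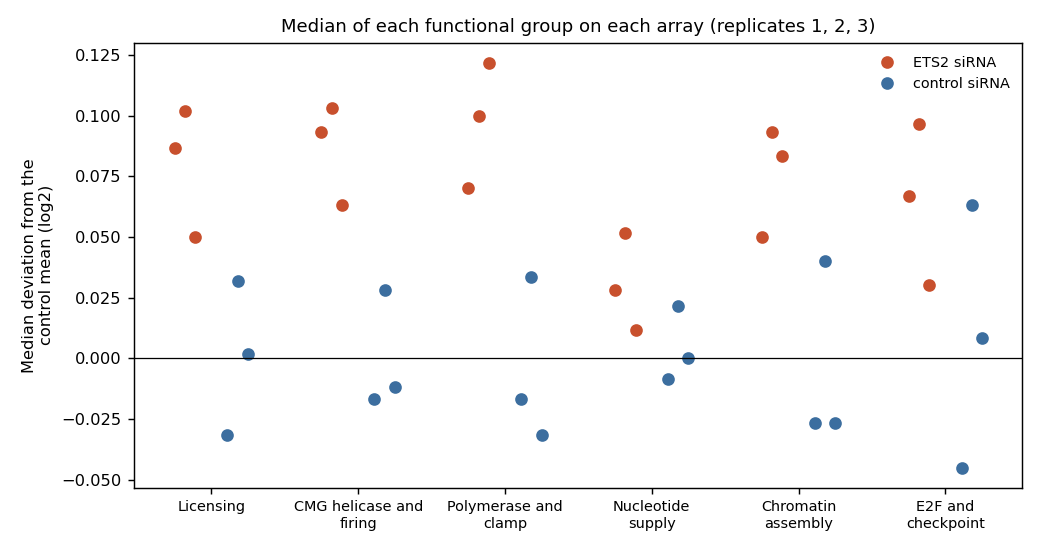
Median deviation from the control mean, in log2 RMA level, of each functional group on each array, with ETS2 siRNA arrays left of control siRNA arrays and replicates 1, 2 and 3 from left to right. The polymerase and clamp genes have medians of 0.07, 0.10 and 0.12 on ETS2 siRNA arrays, against -0.02, 0.03 and -0.03 on control arrays.

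Further genes of the replication pathway changed in both directions. Of 75 listed, 71 were measured, and 7 rose and 2 fell (12.7% called, against 4.91% of all genes), with 50 positive differences and a median of 0.04. CDK2, the kinase that with cyclin E drives entry into S phase, rose by 0.28 (adjusted p = 0.0134), at 10.54, 10.63 and 10.59 after ETS2 siRNA against 10.31, 10.36 and 10.26 with control siRNA. CCNE2, a cyclin E, rose by 0.19 (adjusted p = 0.0304). E2F7, a repressor that limits E2F output, rose by 0.35 (adjusted p = 0.0298), at 9.96, 9.92 and 9.94 after ETS2 siRNA against 9.52, 9.76 and 9.49 with control siRNA. Proteins at the fork were among the others that rose. RPA1, which coats single-stranded DNA, rose by 0.23 (adjusted p = 0.0144), and RFC1, the large subunit of the clamp loader whose smaller subunits are described above, by 0.21 (adjusted p = 0.0197). DONSON, needed for helicase assembly, rose by 0.20 and POLE3, a histone-fold subunit of polymerase epsilon, by 0.19.

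Those that fell were ASF1B, a histone chaperone that hands histones to CAF-1, by 0.20 (adjusted p = 0.0309), and CHEK1, the kinase that claspin serves, by 0.19 (adjusted p = 0.0476). CHEK1 is named outside the rule for named genes, after its values were seen. Among uncalled genes with the smallest p in their lists, ORC2 differed by 0.12, POLD3 by 0.14, DTYMK by 0.06, NASP by 0.09 and CCNA2, cyclin A, by -0.17. By limma 0 of the 5 measured further nucleotide supply genes were called, and 0 had an unadjusted p under 0.05. Leaving out an array ended many of these 9 calls: each array other than control replicate 2 ended 8 or 9 of them, and control replicate 2 ended those of ASF1B and CHEK1.

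Mitosis genes are expressed mostly after replication is complete. Of 25 measured, 4 fell and 0 rose (16.0% called, against 4.91% of all genes), 15 differences were negative and 10 positive, and the median was -0.04. The kinesin KIF20A fell by 0.42, at 11.27, 11.28 and 11.29 after ETS2 siRNA against 11.67, 11.71 and 11.71 with control siRNA (adjusted p = 0.00131). HMMR, a spindle-associated protein, fell by 0.36, and BUB1B of the spindle checkpoint by 0.28. AURKA, a kinase of the spindle poles, fell by 0.21. Of the G1 cyclins, CDKs and inhibitors, 11 measured, CDK6 alone was called (9.09%, against 4.91% of all genes). At an unadjusted p under 0.05 by limma 4 of the 11 were higher and 1 lower, against 9.28% and 9.23% of all genes. CDK6, which phosphorylates RB1 early in G1, rose by 0.45, at 10.71, 10.79 and 10.74 after ETS2 siRNA against 10.35, 10.32 and 10.22 with control siRNA (adjusted p = 0.00247). KIF20A, HMMR and CDK6 kept their calls whichever array was removed, whereas BUB1B lost its call without ETS2 siRNA replicate 2 and AURKA lost it without any 1 array other than control replicate 2.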

How the data were processed

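Biotin-labelled cRNA from total RNA was read on an Affymetrix human gene array, per the labels. The deposited values are log2 levels from RMA, which the submitters' processing notes name; RMA version, settings and build: not given in the sources used here. RMA removes shifts shared by all genes and compresses folds of dim genes. Precision is limited by having 3 arrays a group.

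Of 33297 probes, 19460 carried 1 symbol, and the brightest per gene left 18417 genes. limma 3.58.1 in R 4.3.3 (lmFit, eBayes, no trend, two-sided, Benjamini-Hochberg over all genes) used all 6 arrays and was tested on simulated data. No exact permutation test of single genes was run, since the smallest p it allows is 0.1. The p-values rest on the spread between arrays of separate transfections, with each gene's variance drawn by eBayes towards that of all genes. The members and lists were chosen with earlier results of these data known.

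Values on all arrays are given for called members, the markers CDC6, CLSPN and UHRF1, and the largest and smallest difference of each functional group; those of other members were added. Other replication genes are named if among the 8 largest called or the smallest uncalled p of a list, and reference lists name up to 4 called genes. Alternatives were a replicate block, 3 rescalings, 2 dim-gene filters, 2 probe rules, 2 variance models, array weights and each array left out.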

Additional observations from a re-analysis of the deposited data

How the results depend on the processing

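The median difference of the 39 genes lay between 0.075 and 0.11 on the log2 scale under the rescalings, array weights and each array left out. The replicate block, dim-gene filters, variance models and test of all probes leave each gene's difference as it is, so they could not move this median. Averaging over probes could change only CLSPN and UHRF1. The number of calls depended on the variance model and the genes tested. The main counts were 904 of 18417 genes and 4 of the 39 (3 higher, 1 lower). Testing genes above the floor in at least 1 group gave 1397 of 13043 genes and 10 of the 39 (9 higher). Testing genes above the floor on all 6 arrays gave 1467 genes, of at most 13043 tested, and 10 of the 39 (9 higher). A variance trend gave 1963 of 18417 genes (1921 when robust) and 15 of the 39 (14 higher). Array weights gave 1480 of 18417 genes and 10 of the 39 (9 higher). Testing all 33297 probes gave 399 probes and 0 of the 39. At an unadjusted p under 0.05 by limma 17 of the 39 were higher and 1 lower. The share over all probes was not computed. With each array left out, limma called between 213 and 735 genes and 0 of the 39. With the replicate number as a block, limma called 2 of the 39, CDC6 and CLSPN, and 0 lower. RRM1 then stood at an adjusted p of 0.0616 by limma and UHRF1 at 0.0741. Deviations of same-numbered arrays correlated at 0.177, 0.181 and 0.0352. Those of arrays with different numbers correlated between -0.198 and 0.0659. Whether same-numbered arrays were handled together was not tested. The block also ended the calls of 7 of the 9 further replication genes, all but CDK2 and RPA1, and of AURKA (adjusted p = 0.0649). Uncalled differences near 0 changed sign with an array left out: MCM6 ranged from -0.03 (without ETS2 siRNA replicate 2) to 0.05, E2F1 from -0.0333 to 0.015 (without ETS2 siRNA replicate 2; 0.0117 without control replicate 3), GINS1 from -0.00833 (without control replicate 3) to 0.0367 and BRCA1 from -0.00833 (without control replicate 1) to 0.0567. The cause was not tested. Requiring 2 E2F matches a window lowered the share of the replication genes' windows to 8.51%, against 0.125% of all windows. With 3 arrays a group, intervals of single genes are wide beside differences of this size.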

Other observations

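Several replication genes share a promoter region with a gene on the other strand, as their RefSeq promoter windows overlap. Of 10 measured neighbours, 3 had positive differences. FEN1 differed by 0.13 and its neighbour TMEM258 by -0.04, PCNA by 0.16 and CDS2 by -0.08, ORC1 by 0.08 and PRPF38A by -0.09. ORC6 differed by 0.17 and VPS35, a retromer subunit, by 0.09, MCM7 by 0.05 and AP4M1 by 0.11, and TK1 by 0.11 and AFMID by 0.03. MCM2 differed by -0.03 and TPRA1 by -0.15, POLE by 0.05 and PXMP2 by -0.02. BRCA1 differed by 0.02, with NBR1 at -0.03 and NBR2 at -0.08. None of these genes was called by limma. ORC6, PCNA, FEN1, TK1, TPRA1 and AP4M1 had an unadjusted p under 0.05. The pairs were found after the differences were known, and no difference within a pair was tested.

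Promoter letters of the mitosis genes were counted as well. A CCAAT box lay in 20 of 24 windows of mitosis genes (83.3%) and an E2F match in 3 of them (12.5%), against 61.7% and 44.7% of the windows of the replication genes. The other replication genes had a CCAAT box in 51.25% and an E2F match in 22.5% of their 80 windows. Over all windows the shares were 34.6% and 3.31%. These shares are descriptions of lists of unequal size, and differences between lists were not tested.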
